A study of Mus musculus with 3 samples.

Results

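The cell cycle and DNA replication genes described here are 42 listed genes out of 21883 protein-coding genes in the annotation. They were chosen by name and fall into 3 classes of 14: genes that drive or restrain entry into the cycle in G1, genes of DNA replication, and genes of G2 and mitosis. For each gene, every peak with any base over its mm10 span or the 5 kb on either side was taken from both deposited peak lists. The chromatin came from suprabasal keratinocytes, the layers of the epidermis above the dividing basal layer, of wild type BALB/c mice. The sample labels call the animals adult, whereas the series text describes newborn skin, and this was not settled here. Chromatin immunoprecipitation followed by sequencing (ChIP-seq) was made with anti-Dlx3, anti-H3K4me3 and IgG. DLX3 is a DNA-binding homeodomain protein active as epidermis differentiates, and H3K4me3 is the trimethyl mark on lysine 4 of histone H3 found at active promoters. Each antibody has 1 library, so no value below has a replicate error, and nothing was tested. The IgG library was not analysed here.

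Each deposited list gives a position and a score per peak. The score is the authors', it has no stated scale in the sources used here, and it was compared within a list only. The 18087 DLX3 peaks score from 50.01 to 3100, with a median of 83.35 and the top decile from 187. The 16735 H3K4me3 peaks score from 50 to 3233, with a median of 824, and 766 of them share the value of exactly 3100. Depth is unknown. As a check of the labelled cells, all 9 suprabasal keratinocyte markers had H3K4me3 within 1 kb of a start, as did 6 of 7 basal markers, 4 of 6 fibroblast markers, 1 of 5 melanocyte markers, 0 of 6 immune markers and 1 of 4 endothelial markers. Trp63, the basal marker outside that count, had an H3K4me3 peak of 6027 bp with a score of 2127 in its window, but not within 1 kb of a tabulated start. The 1 melanocyte mark, at Pmel (chr10:128694700-128697455), also lay at the start of Rab5b, and it falls in the window of Cdk2, the next gene. The fibroblast marks, at Col1a1, Col1a2, Pdgfra and Dcn, scored 476, 291, 170 and 78.7, within the range of the keratinocyte markers with a mark at the start, among which Ivl had 76.8, Col17a1 127 and Lor 2180. The part of other cells in the peaks below was not tested, and in a bulk list a mark in few cells cannot be told apart from a mark in many.

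Entry into the cycle is set by D cyclins with CDK4 or CDK6 and by E cyclins with CDK2, which phosphorylate the retinoblastoma protein and release E2F factors. E2F factors switch on genes that license and copy DNA: the origin recognition complex, CDC6 and CDT1 load the MCM helicase, and PCNA clamps the polymerases. The genes of mitosis follow later under B-MYB, FOXM1 and NF-Y, and in resting cells the DREAM complex holds them silent through an element called CHR. In the epidermis, basal cells divide and cells that move above them leave the cycle as they differentiate.

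All 42 genes carried H3K4me3 and 26 carried DLX3. H3K4me3 lay in the window of 42 of 42, against 66.2% of all protein-coding genes, and within 1 kb of a start in 42 of 42, against 60.3%. DLX3 lay in the window of 26 of 42 (61.9%, 95% Wilson interval 46.8 to 75.0). The same rule called 41.5% of all protein-coding genes and 60.0% of the 14488 that carry H3K4me3, so the members' share was near that of other marked genes. By class, DLX3 was found at 11 of 14 G1 genes (78.6%, 52.4 to 92.4), 9 of 14 replication genes (64.3%, 38.8 to 83.7) and 6 of 14 mitosis genes (42.9%, 21.4 to 67.4). The 3 intervals overlap. G1 spans were also longer, with a median of 19066 bp and a maximum of 190005 bp, against 15771 bp in the replication and 12158 bp in the mitosis class, and a longer span gives a wider window. The median span was 14522 bp over all members, shorter than the 23695 bp over protein-coding genes with H3K4me3. The part of span length in these shares was not tested.

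**Figure D1:**
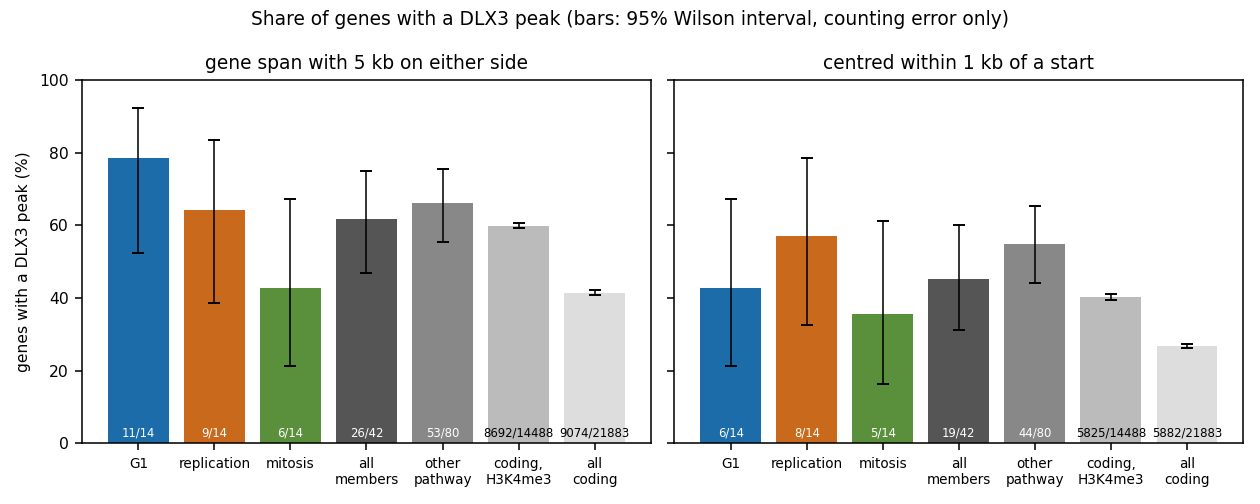
Share of genes, in percent, with a DLX3 peak in the span with 5 kb on either side (left) or centred within 1 kb of a start (right), for the 3 classes, all 42 members, 80 other pathway genes and the protein-coding genes with and without regard to H3K4me3. Bars carry 95% Wilson intervals, which cover counting error only; the fall from G1 (11 of 14) to mitosis (6 of 14) on the left becomes 6, 8 and 5 of 14 on the right.

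Counting only peaks centred within 1 kb of a start changed the order of the classes. By that rule DLX3 was at 19 of 42 genes (45.2%), against 26.9% of all protein-coding genes and 40.2% of those with H3K4me3. It was at 6 of 14 G1, 8 of 14 replication and 5 of 14 mitosis genes. DLX3 lay in the window but not within 1 kb of a start at 5 G1 genes (Cdk6, Ccnd1, Ccnd3, E2f3 and Myc), 1 replication gene (Orc1) and 1 mitosis gene (Cdc20). The 42 windows held 49 DLX3 peaks, 28 of them at G1, 13 at replication and 8 at mitosis genes. Of these, 11 of the G1 peaks lay off H3K4me3, as did 1 of the replication peaks and 1 of the mitosis peaks. More than 1 DLX3 peak was found at 8 G1, 3 replication and 2 mitosis genes. That is 13 of 42, against 15.5% of all protein-coding genes and 22.8% of those with H3K4me3.

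**Figure D2:**
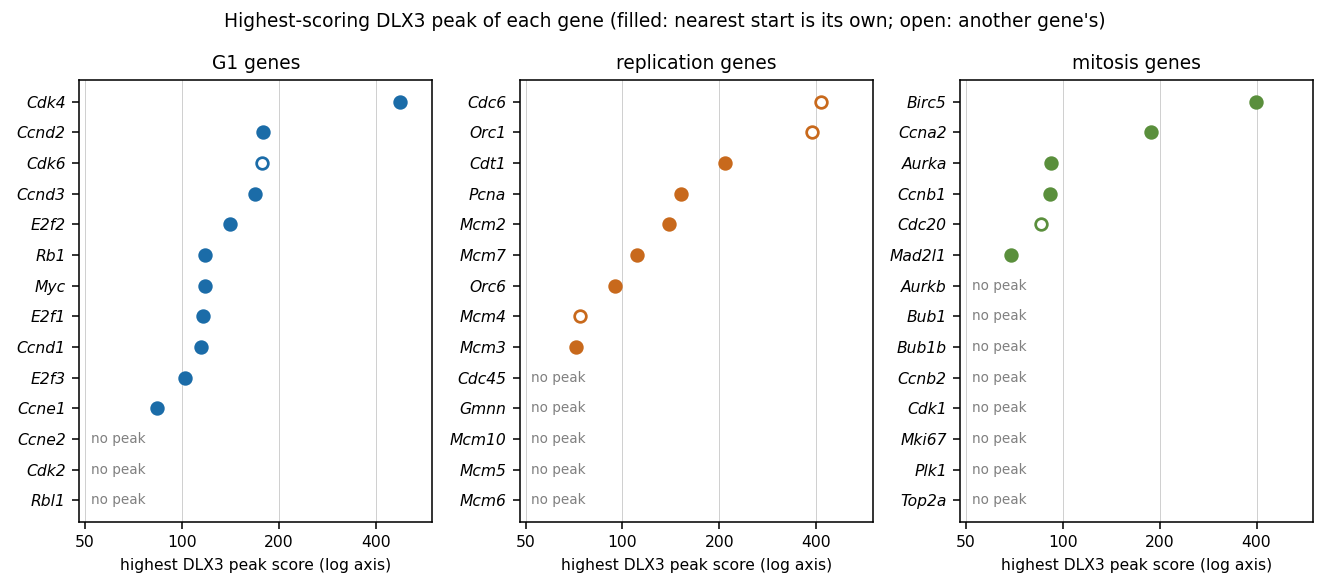
Score of the highest DLX3 peak in the window of each gene, on a log axis, by class. Filled points are peaks whose nearest protein-coding start is that of the gene itself and open points are nearer to another gene's start; the highest point of the G1 panel is Cdk4 (475), and the 2 highest of the replication panel, Cdc6 and Orc1, are open.

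Among the G1 genes the strongest DLX3 peak was at Cdk4, the catalytic partner of the D cyclins. It had a score of 475 (chr10:127063083-127064043, mm10), rank 80 in the list, and was centred 28 bp inside the gene from its start. It sat in an H3K4me3 peak of 3046 bp with a score of 1569. The bases before that start are shown because they lie under this peak (GRCm38.p6, the assembly of mm10, chr10:127063285-127063534, plus strand, RefSeq). Capitals mark CACGTG, the E-box bound by MYC with its partner MAX, a motif added after the data were seen.
Cdk4: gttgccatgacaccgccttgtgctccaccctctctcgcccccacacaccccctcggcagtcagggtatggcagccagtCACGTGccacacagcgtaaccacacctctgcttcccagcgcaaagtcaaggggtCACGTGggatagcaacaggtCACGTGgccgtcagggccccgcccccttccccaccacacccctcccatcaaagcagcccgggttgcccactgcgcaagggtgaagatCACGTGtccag

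The 4 E-boxes begin 172, 118, 98 and 11 bases before the start. Of 21262 promoter windows of protein-coding genes (250 bases before to 50 after a start), 5 held at least 4 E-boxes, Cdk4 among them, and 7.84% held any. The limit of 4 is the count of Cdk4 itself. No other member window under a DLX3 peak held one, but 2 of the 24 without DLX3 did (Cdk6 and E2f3). Over all members this was 3 of 37 windows (8.11%), near the share of all windows.

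All DLX3 peaks of the cyclin D genes Ccnd1 and Ccnd2, and 1 of the 5 of Ccnd3, lay inside very broad H3K4me3 domains. Ccnd2 had 3 DLX3 peaks, scoring 59.9, 178 and 50.6, all inside 1 H3K4me3 peak of 8635 bp with a score of 3100 (chr6:127147551-127156185). The strongest of them was centred 432 bp outside the end of the span that carries H3K4me3 (chr6:127152311-127152930). Ccnd1 had 1 DLX3 peak (score 115; chr7:144941340-144942091), 1884 bp outside the span, in an H3K4me3 peak of 7611 bp, also at 3100. Ccnd3 had 5 DLX3 peaks over its 94639 bp span. Its 2 strongest scored 169 (chr17:47595584-47596456) and 168 (chr17:47507761-47508453). They lay 2553 bp downstream of the second start given for the gene and 3056 bp downstream of the first. The H3K4me3 peaks under them were 5296 and 1050 bp wide. The other 3 DLX3 peaks scored 54.1 to 73.7. Of the cyclin D peaks, only 2 of Ccnd2 (178 and 59.9) were centred within 1 kb of a start or span end.

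CDK6 is the other kinase of the D cyclins. The 2 DLX3 peaks of Cdk6 (177 at chr5:3529633-3530201, and 122) lay 186024 and 143323 bp downstream of its start, off H3K4me3. The first was 1091 bp from the far end of the gene. Both were nearer to the start of the neighbour Fam133b, at 13916 and 56617 bp. The Cdk6 start had no DLX3, although an H3K4me3 peak of 4540 bp at a score of 3100 covered it. Of the E cyclins, Ccne1 had a DLX3 peak of 83.8 centred 112 bp upstream of its start (chr7:38107263-38107942), and Ccne2 had none, the nearest being 33644 bp from its span. Cdk2, their kinase, had none either, with the nearest 28549 bp away.

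The 3 E2F genes among the members all had DLX3, as did 1 of the 2 member genes of pocket proteins, which bind E2F factors. Outside the members, E2f4 had no DLX3 peak, and the only one of E2f5 lay 117 bp from the start of Rbis. E2f6, E2f7, E2f8 and the pocket protein gene Rbl2 each had one within 1 kb of the start. E2f2 had 4 DLX3 peaks, the 2 highest at 141 (chr4:136174603-136175458, 2756 bp downstream of the first start) and 140 (chr4:136180341-136180953, 135 bp upstream of the second start, which lies inside the gene). E2f1 had 3; the highest, 117 (chr2:154569861-154570487), was 748 bp upstream of the tabulated start and 282 bp outside the span. A second E2f1 peak of 80.0 lay 111 bp from the start of the neighbour Necab3. E2f3 had 3 peaks scoring 65.1 to 102, all inside the gene at 33788 to 43408 bp from a start and off H3K4me3. Rb1, the retinoblastoma gene, had a peak of 118 centred 26 bp from the end of its span that carries H3K4me3 (chr14:73325620-73326230), another of 76.9 beside it and one of 70.3 far inside the gene. Rbl1, which encodes the related pocket protein p107, had H3K4me3 of 2556 bp and no DLX3 peak; the nearest was 10321 bp away.

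Myc, a transcription factor gene that drives growth and cycle entry, had 2 DLX3 peaks at opposite ends of 1 H3K4me3 domain. The domain was 7002 bp wide and scored 3100 (chr15:61983040-61990041). One peak scored 118 and was centred 1889 bp outside the span (chr15:61983201-61983703), and the other scored 62 inside the gene (chr15:61988633-61989499).

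**Figure D3:**
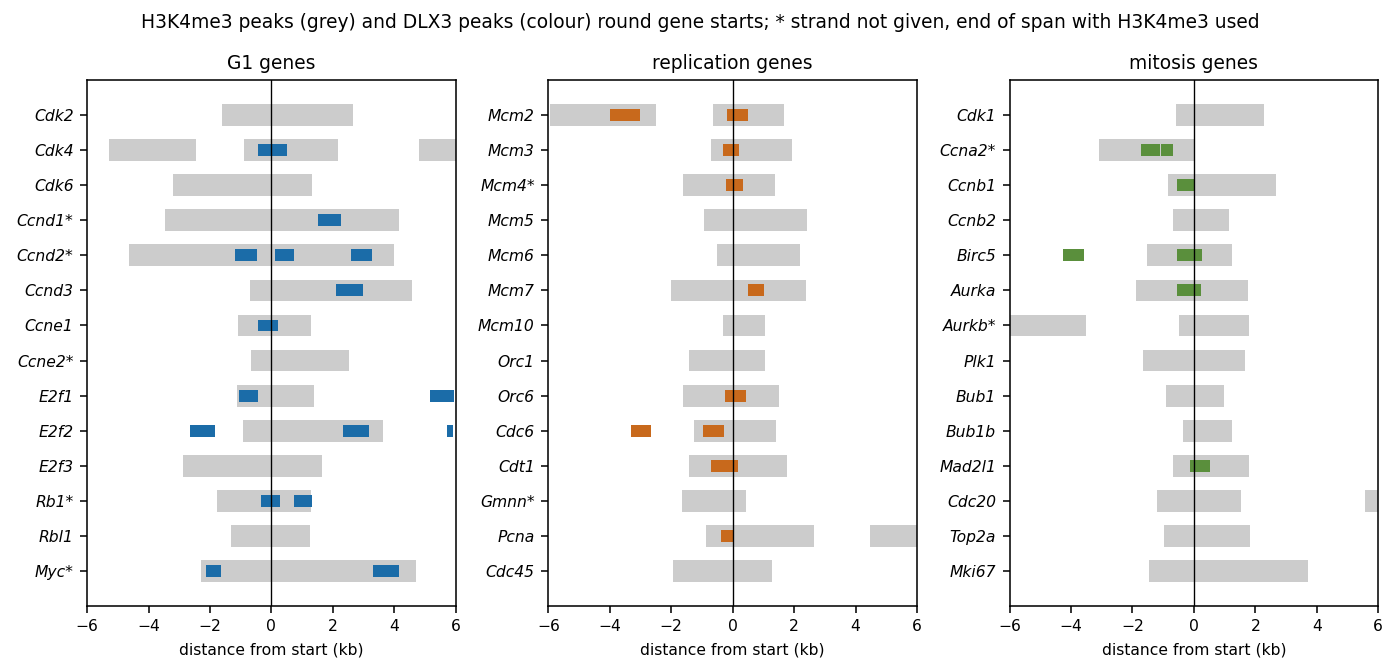
H3K4me3 peaks (grey) and DLX3 peaks (colour) around 1 start of each of the 42 genes, in kb, with transcription to the right; an asterisk marks genes whose strand was not in the table, drawn by ascending coordinate from the span end with H3K4me3. Grey bars cross every start, and the broadest are those of Ccnd2 (8635 bp), Ccnd1 (7611 bp) and Myc (7002 bp).

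In the replication class the 2 highest DLX3 scores belonged to sites that were not at the genes' own starts. The peak of 413 counted for Cdc6, which encodes the loader of the MCM helicase, lay 1112 bp past its far end and 1259 bp before the span of Rara, a retinoic acid receptor gene (chr11:98925054-98926541). It was on an H3K4me3 peak of its own of 2164 bp with a score of 217. The Cdc6 start itself had a weaker DLX3 peak of 80.2, centred 613 bp upstream (chr11:98907192-98907885), and one of 88.1 farther upstream lay off H3K4me3. The peak of 389 counted for Orc1, the gene of the largest subunit of the origin recognition complex, lay 70 bp from the start of Cc2d1b and 40432 bp from the Orc1 start (chr4:108619373-108620400). The Orc1 start had H3K4me3 of 2474 bp, shared with the neighbour Prpf38a, and no DLX3.

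Cdt1 and Pcna had the highest DLX3 scores at their own starts in this class. Cdt1, whose product loads the MCM helicase together with CDC6, had a peak of 209 centred 259 bp upstream (chr8:122567326-122568187), rank 1362 in the list. Pcna, the sliding clamp gene, had a peak of 152 centred 173 bp upstream (chr2:132253135-132253572). The span of the neighbour Cds2 also overlaps the Pcna peak, although no tabulated start of another gene lay within 1 kb of its centre. Gmnn, which encodes geminin, the inhibitor of CDT1, had none; the nearest was 38533 bp away.

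The genes of the MCM helicase differed among themselves although their products form 1 ring. Mcm2 had a DLX3 peak of 140 centred 161 bp inside the gene (chr6:88898282-88898957), and Mcm7 one of 111 centred 143 bp downstream of 1 of its 2 starts (chr5:138170862-138171385). Mcm4 had one of 74 centred 60 bp outside its span (chr16:15637173-15637748), and Mcm3 one of 71.8 centred 65 bp upstream (chr1:20820121-20820634). Mcm5 and Mcm6 had none, with the nearest peaks 15492 and 228385 bp from their spans. So 4 of the 6 ring genes had DLX3 at the start, against 26.9% of all protein-coding genes and 40.2% of those with H3K4me3. Of the other replication genes, Orc6 had a peak of 94.8 centred 93 bp from its start, and Mcm10 and Cdc45, which help to turn the loaded helicase on, had none.

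Several replication genes shared their marked start with a neighbour. The H3K4me3 peak at the start also covered the start of another protein-coding gene in 5 of 14, namely Mcm4 (with Prkdc), Mcm7 (Ap4m1), Orc1 (Prpf38a), Orc6 (Vps35) and Cdc45 (Ufd1). This was so in 1 of 14 mitosis genes, Aurka (Cstf1), and in 0 of 14 G1 genes, against 19.0% of all protein-coding genes with H3K4me3 at a start. The DLX3 peak of Mcm4 was centred 16 bp from the Prkdc start, nearer than to Mcm4, so these peaks cannot be given to 1 gene of the pair. Over all classes, 22 of 42 genes had a DLX3 peak nearer to their own start than to any other (10 G1, 7 replication and 5 mitosis genes), against 33.6% of all protein-coding genes and 48.6% of those with H3K4me3.

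In the mitosis class DLX3 was strong at Birc5 and Ccna2 and was not found at 8 of the 14 genes. Birc5, which encodes survivin, a subunit of the chromosomal passenger complex, had a peak of 397 centred 151 bp upstream of its start (chr11:117848681-117849492), rank 164, and a second of 58.7 farther out. Ccna2, the gene of cyclin A2, had peaks of 188 (chr3:36571971-36572353) and 56.4, both inside the gene on H3K4me3, the first 876 bp from the end of the span. Aurka (91.8; chr2:172370323-172371108), a spindle pole kinase gene, Ccnb1 (91.1; chr13:100786486-100787026), the gene of cyclin B1, and Mad2l1 (69.1; chr6:66535081-66535752), a spindle checkpoint gene, had a peak at 145 to 270 bp from the start. The only peak of Cdc20, an activator of the anaphase-promoting complex, scored 85.5 and lay 127 bp from the start of the neighbour Elovl1.

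No DLX3 peak was found at Cdk1, the kinase of mitosis, its cyclin gene Ccnb2, the kinase genes Aurkb and Plk1, the checkpoint genes Bub1 and Bub1b, Top2a, which encodes the enzyme that untangles DNA, or Mki67, the proliferation marker gene. All 8 had H3K4me3 at the start, with widths from 1573 bp at Bub1b to 5182 bp at Mki67. The nearest to the 5 kb limit was Aurkb, with a DLX3 peak of 196 at 7533 bp from its span. Just inside the limit were the peaks of Orc1 at 3343 bp and Cdc20 at 3084 bp. Over all 16 genes without DLX3 the nearest peak was 7533 to 228385 bp away, with a median of 34868 bp.

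The H3K4me3 peaks at G1 genes were broader and scored higher than those of the other 2 classes. The median width at the start was 4395 bp in G1 (range 2374 to 8635), 2853 bp in replication (1390 to 4376) and 2798 bp in mitosis genes (1573 to 5182), and 2391 bp over all marked protein-coding genes. Widths over 4 kb were found in 8 of 14 G1 genes, 1 replication gene (Mcm7, 4376 bp) and 1 mitosis gene (Mki67). The share was 6.32% over all protein-coding genes and 9.54% over those with H3K4me3. The 8 G1 genes were Ccnd2, Ccnd1, Myc, Ccnd3, E2f2, Cdk6, E2f3 and Cdk2. Scores of exactly 3100 were reached by 6 G1 genes (Ccnd1, Ccnd2, Ccne2, Cdk6, E2f3 and Myc) and by none of the 28 others. The value was reached by 4.09% of all protein-coding genes, which is 894 genes, all of them among the 14488 with H3K4me3. The ranges of the classes overlap, and Ccne1 at 2374 bp was narrower than the median mitosis gene. The narrowest and lowest-scoring mark was at Mcm10, at 1390 bp with a score of 388.

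**Figure D4:**
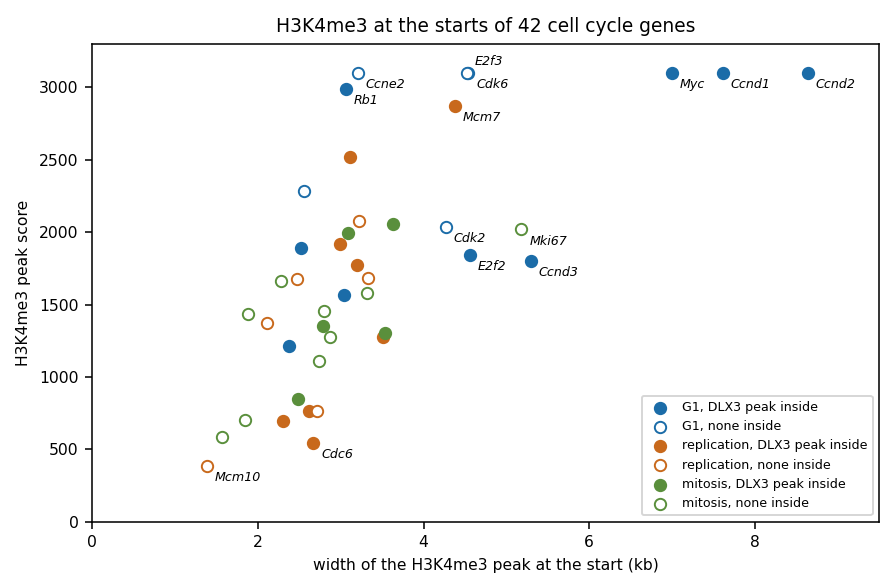
Width in kb and score of the broadest H3K4me3 peak within 1 kb of a start, 1 point per gene, coloured by class and filled where a DLX3 peak lies in it. The 3 broadest, Myc, Ccnd1 and Ccnd2, are filled and stand at 3100, where Ccne2, E2f3 and Cdk6 stand open.

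Among all protein-coding genes, broader H3K4me3 at the start went with more DLX3 inside it. DLX3 lay inside that H3K4me3 peak in 26.6% of genes with 1 to 2 kb, 49.6% with 2 to 3 kb, 61.3% with 3 to 4 kb and 71.3% over 4 kb. Inside means at least 1 shared base, and a wider peak has more room for such an overlap. The part of this in the rise was not tested. The members gave 0 of 4 (Mcm10, Bub1, Bub1b and Ccnb2), 8 of 16, 8 of 12 and 6 of 10. In all, 22 of 42 members had DLX3 inside it (9 G1, 8 replication and 5 mitosis genes), against 46.1% of all genes with such a mark. The part of the width in the difference between the classes was not tested. Where a member had DLX3, its highest peak was on H3K4me3 in 24 of 26, the others being Cdk6 and E2f3, against 73.2% of all protein-coding genes with DLX3. That peak was in the top decile of the DLX3 list in 6 of 42 (Cdk4, Cdc6, Orc1, Cdt1, Birc5 and Ccna2). The share was 6.59% over all protein-coding genes and 9.73% over those with H3K4me3. The Cdc6 and Orc1 peaks were nearest to the start of another gene.

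The promoter windows of the 3 classes held different sequences. RefSeq windows were at hand for 33 of the 42 genes (37 windows), and were searched on both strands for TTTCCCGC or TTTGGCGC (E2F), TTTGAA or TTCGAA (CHR), CCAAT (the NF-Y site), TAATTA or TAATTG (the homeodomain core), TGANTCA (AP-1) and CACGTG. Neighbouring matches can share letters, as CCAAT and the reverse of TAATTG do in CCAATTA. The E2F letters were found in 6 of 13 replication windows, 3 of 12 G1 windows and 0 of 12 mitosis windows, against 2.02% of all protein-coding windows. The CHR letters were found in 9 of 12 mitosis, 3 of 13 replication and 2 of 12 G1 windows, against 17.6%. CCAAT was found in 10 of 12 mitosis, 11 of 13 replication and 5 of 12 G1 windows, against 38.2%.

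**Figure D5:**
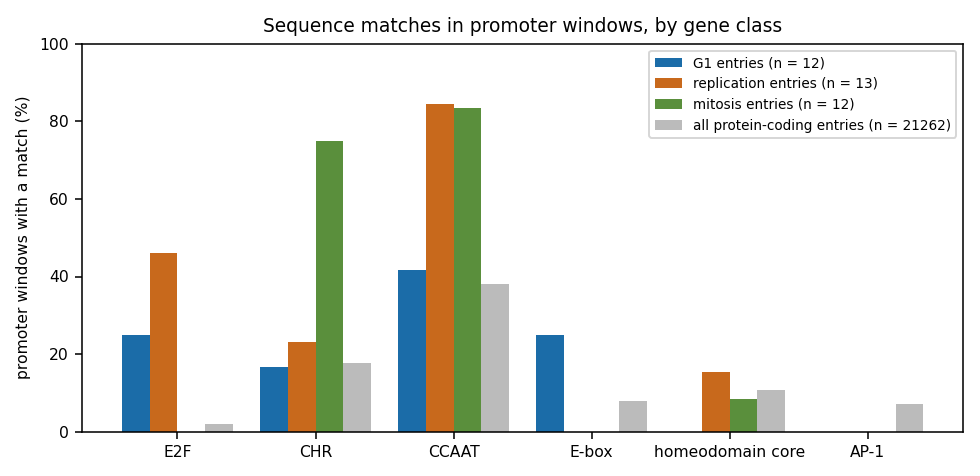
Percent of promoter windows with at least 1 match on either strand, for G1 (12 windows), replication (13), mitosis (12) and all protein-coding genes (21262). E2F letters are highest in the replication and CHR letters in the mitosis class (6 of 13 and 9 of 12), while AP-1 letters are in none of the members' windows.

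The next 2 sequences are shown as examples of the E2F and the CHR class, chosen after the values were seen. Neither has a DLX3 peak. Both give the 250 bases before the start, with E2F, CHR and CCAAT letters in capitals (GRCm38.p6, minus strand; Mcm6 chr1:128359706-128359955, Cdk1 chr10:69352913-69353162).
Mcm6: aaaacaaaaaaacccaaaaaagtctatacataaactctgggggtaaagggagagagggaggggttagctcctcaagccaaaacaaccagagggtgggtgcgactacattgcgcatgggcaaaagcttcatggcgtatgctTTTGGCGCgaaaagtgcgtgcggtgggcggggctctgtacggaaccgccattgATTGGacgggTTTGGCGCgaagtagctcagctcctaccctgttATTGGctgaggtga
Cdk1: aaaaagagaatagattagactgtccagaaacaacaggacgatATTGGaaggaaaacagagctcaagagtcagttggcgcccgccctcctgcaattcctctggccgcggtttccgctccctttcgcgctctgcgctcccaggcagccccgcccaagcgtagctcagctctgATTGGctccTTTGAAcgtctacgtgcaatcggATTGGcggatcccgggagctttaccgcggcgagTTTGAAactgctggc

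Mcm6 has E2F letters beginning 110 and 47 bases before the start, and CCAAT, read on the other strand as ATTGG, at 57 and 14 bases. Cdk1 has CHR letters at 71 and 15 bases, and CCAAT at 208, 80 and 48 bases, all read on the other strand.

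The windows under DLX3 peaks are shown for Cdt1, Pcna and Birc5, which with Cdk4 have the highest DLX3 scores over a promoter window. The starts of E2f2 and Aurka come next in their classes but lie inside gene spans, and their sequence is not printed. Capitals mark CCAAT on the other strand, the only match in these stretches; the E2F letters of the Cdt1 window lie after its start (GRCm38.p6; Cdt1 chr8:122567765-122568014, plus strand; Pcna chr2:132253181-132253337, minus strand, cut where the gene Cds2 begins; Birc5 chr11:117848987-117849236, plus strand).
Cdt1: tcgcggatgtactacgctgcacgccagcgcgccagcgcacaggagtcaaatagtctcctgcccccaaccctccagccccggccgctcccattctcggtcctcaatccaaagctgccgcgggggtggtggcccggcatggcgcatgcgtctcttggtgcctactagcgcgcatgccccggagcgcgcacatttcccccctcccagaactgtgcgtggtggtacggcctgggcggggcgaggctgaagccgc
Pcna: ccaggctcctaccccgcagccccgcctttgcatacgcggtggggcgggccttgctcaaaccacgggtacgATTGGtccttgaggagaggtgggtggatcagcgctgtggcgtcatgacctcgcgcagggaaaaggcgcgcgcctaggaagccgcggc
Birc5: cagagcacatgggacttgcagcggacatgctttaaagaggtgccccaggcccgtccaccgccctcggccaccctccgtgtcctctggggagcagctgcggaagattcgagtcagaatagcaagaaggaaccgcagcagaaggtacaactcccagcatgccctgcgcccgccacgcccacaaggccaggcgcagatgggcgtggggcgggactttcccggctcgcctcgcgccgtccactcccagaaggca

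Of the 37 windows, 13 lay under a DLX3 peak, against 24.5% of all protein-coding windows. Among protein-coding windows under H3K4me3, the share was 41.2% of those with CHR letters and 41.5% of those without. None of the 13 member windows held the homeodomain core letters. The core was in 3 of the 24 others (Top2a, Cdc45 and Mcm10), in 10.7% of all protein-coding windows and in 6.14% of the 5214 windows under any DLX3 peak. AP-1 letters were in 0 of 37, against 6.99%. A window of this length covers only part of a DLX3 peak.

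Other genes of the pathway, from 4 lists of 80 genes, were counted by the same rules. DLX3 was in the window of 53 of 80 (66.3%), against 41.5% of all protein-coding genes and 60.0% of those with H3K4me3. It was centred within 1 kb of a start in 44 of 80 (55.0%), against 26.9% and 40.2%. All 80 had H3K4me3. Of the 7 CDK inhibitor genes, which stop the cycle, 5 had DLX3: Cdkn2d (194), Cdkn2b (134), Cdkn1a (108), Cdkn1c (78.5) and Cdkn1b (51.97). Cdkn2a and Cdkn2c had none. The Cdkn1b peak lay 8132 bp from its start, at rank 17231 in the list, and the highest of Cdkn1a 1339 bp from a start. DLX3 was centred within 1 kb of a start at 3 of the 7. Cdkn1a, which encodes p21 and is induced by p53, and Cdkn1b, which encodes p27, had H3K4me3 of 5091 and 5733 bp with a score of exactly 3100, the value also found at Ccnd1, Ccnd2 and Myc. Of 14 genes of E2F and DREAM partners 11 had DLX3, led by the E2F dimer partner gene Tfdp1 (214, inside the gene and off H3K4me3) and the DREAM subunit gene Lin54 (153, at 37 bp from a start). Of 31 other replication genes 19 had it, led by the ligase gene Lig1 (207, off H3K4me3, 35166 bp from a Lig1 start and nearer to the start of Pla2g4c) and the origin kinase gene Cdc7 (186, at 69 bp). Of 28 other mitosis genes 18 had it, led by the kinetochore gene Nuf2 (213) and the condensin gene Ncapg (202). The other mitosis genes thus stood at 64.3%, where the 14 mitosis members stood at 42.9%.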

How the data were processed

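ChIP-seq libraries for DLX3, H3K4me3 and IgG were made, 1 each. Per the submitters' processing notes, Bowtie 1.1.2, MACS 1.4.2 and HOMER were used with mm10; their settings, and the role of IgG in peak calling, are not stated. The authors' deposited lists for DLX3 and H3K4me3 were used; IgG was not analysed here. Each deposited list gives the authors' score per peak, a number with no stated scale that was used unchanged. Depth is unknown.

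Peak starts were counted from 1. Gene spans and starts came from RefSeq tables (assembly GRCm38.p6, equal to mm10). Strand and start were given for 33 of the 42 genes; for the other 9, and for background genes with no entry, both span ends stood for the start. Peaks sharing at least 1 base with the span widened by 5 kb at each end were counted. The widest H3K4me3 peak within 1 kb of a start was its mark. Counting was tested on simulated peaks. Intervals are Wilson intervals at 95% and cover counting error only. Python 3.11.15, pandas 2.3.3 and scipy 1.17.1 were used.

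The members, classes and lists were chosen with earlier results of these data known. Named were all members, the 4 highest DLX3 scores per class first, every CDK inhibitor gene and the 2 highest of each other list. Alternatives varied the flank (0, 1 and 10 kb), the score threshold, the overlap and the distance to the start.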

Additional observations from a re-analysis of the deposited data

How the results depend on the processing

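Counting was repeated with no flank, 1 kb or 10 kb on either side, and with peak centres in place of any base. It was also repeated with peaks at or above the median score of their list. In these settings DLX3 was at 23 to 27 of 42 genes, and H3K4me3 at 36 to 42. The same settings called 26.5% to 46.0% of all protein-coding genes for DLX3, and 46.0% to 68.1% for H3K4me3. With peaks in the top 20% of scores, DLX3 was at 12 of 42 genes (12.4% of all protein-coding genes), namely at 5 G1, 5 replication and 2 mitosis genes, and H3K4me3 at 21 (20.8%). That setting uses fewer peaks, and in it the replication class was level with G1. With H3K4me3 peaks in the top 20%, the highest DLX3 peak was on H3K4me3 in 11 of 26 genes (29.5% of all with DLX3), and with DLX3 peaks in the top 20%, 8 of 42 had one at the start (6.99%). Within 250 bp of a start the count was 13 (21.9% of all protein-coding genes), and within 2 kb 21 (28.9%). Depth is unknown, so a gene without a peak is one where none was called, not one shown to lack DLX3. No paired analysis was possible because each antibody has 1 library.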

Other observations

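Among the 12 promoter windows of the mitosis members, DLX3 peaks and CHR letters rarely coincided. Of the 9 windows with TTTGAA or TTCGAA, 1 lay under a DLX3 peak (Aurka), and the other 8 (Cdk1, Ccnb2, Plk1, Bub1, Bub1b, Cdc20, Top2a and Mki67) did not. The 3 windows without those letters (Birc5, Ccnb1 and Mad2l1) all lay under one. This split was chosen after the values were seen. In the 25 windows of the other mitosis genes, 11 of 18 with the letters and 4 of 7 without them lay under DLX3. Over all protein-coding windows, 17.4% of 3746 with the letters and 26.1% of 17516 without them lay under DLX3. Over those under H3K4me3, the mark that all members carried at a start, the shares were 41.2% of 1543 and 41.5% of 10885.

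For E2F letters, 44.3% of 429 protein-coding windows with them and 24.1% of 20833 without lay under DLX3. Over those under H3K4me3, the shares were 49.6% of 381 and 41.2% of 12047. Among the replication members, 2 of 6 windows with E2F letters (Cdt1 and Mcm3) and 4 of 7 without lay under DLX3, and among the G1 members 0 of 3 and 3 of 9. Among the other replication genes the counts were 2 of 5 and 11 of 26.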
